A study of Peromyscus leucopus and Peromyscus maniculatus with 24 samples.

Results

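Young animals of Peromyscus leucopus and Peromyscus maniculatus were compared for brain gene expression, using 12 of the 24 animals of the series, 6 of each species. Peromyscus leucopus, the white-footed mouse, came from the LL stock and P. maniculatus bairdii, a deer mouse, from the BW stock of the same stock center. Both stocks descend from animals caught in the wild and are outbred, the BW stock being a closed captive colony, and all 12 animals were 7 months old, with no treatment named in the labels. The study asked how brain expression in the 2 species is coordinated at a young and an old age, since lesions of the brain had been described in older P. maniculatus. RNA was taken from brain tissue, described in the study as whole sections of the brain, and 1 library was sequenced per animal. The labels give no sex, and none of the 8 sex-linked genes looked for was named in both tables, so a difference of sex between the groups was not tested.

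The genes compared were those whose symbol stood exactly once in each species' table, ignoring case, which gave 13565 shared genes. Of these, 11227 had counts high enough to be tested. Reads of each species had been counted on that species' own genome annotation, so the species and the annotation cannot be told apart. Levels are therefore given in TPM, computed here as counts divided by the gene's length in its own table and scaled to the same total over the shared genes in every animal. Young P. leucopus libraries held 8353753 to 10466728 counts on shared genes and young P. maniculatus libraries 5677254 to 6854561, and between 12423 and 12741 shared genes were detected in each. All differences are on the log2 scale as P. leucopus minus P. maniculatus, with p-values from edgeR's quasi-likelihood test adjusted by Benjamini-Hochberg over all genes tested, and they rest on the spread between animals within a stock. A gene is called different where the adjusted p is below 0.05 and the difference at least 2-fold.

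The brain is a mixture of neurons, which signal through synapses, and of glia. Among the glia, oligodendrocytes wrap axons in the lipid-rich sheath called myelin, astrocytes take up transmitters and supply metabolites, and microglia are the resident immune cells. In such a bulk sample, fewer cells of a type and less RNA per cell cannot be told apart, nor can a different share of brain regions in the piece taken.

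Of the 11227 genes, 1142 (10.2%) were called higher in young P. leucopus and 678 (6.04%) higher in young P. maniculatus. Without the fold limit, 3147 genes (28.0%) passed the adjusted p in the direction of P. leucopus and 1731 (15.4%) in that of P. maniculatus. The counts of each gene list below are to be read beside these shares of all genes. The median difference over all genes was 0.17, and the balance of directions moved with the scaling: with TMM factors, which bring the median to 0.00, 817 genes (7.28%) were called higher in P. leucopus and 920 (8.19%) in P. maniculatus, and 19.9% and 21.4% passed the adjusted p. Without division by length the calls were 1617 (14.4%) and 958 (8.53%), 25.7% and 30.7% passed the adjusted p and the median was -0.10. Calls in the same direction with and without division by length, named below as calls on both scales, numbered 771 (6.87%) for P. leucopus and 379 (3.38%) for P. maniculatus. Dropping the length term raises the difference of genes much longer in P. leucopus and lowers that of genes of like or shorter length there. The condition therefore hardly tests P. leucopus calls among the former or P. maniculatus calls among the latter. The 6 and 6 animals did not overlap for 1546 genes with P. leucopus above (13.8%) and 1009 with P. maniculatus above (8.99%), among them 718 of the 1142 and 493 of the 678 called genes.

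Gene lengths differed widely between the annotations, since the P. leucopus gene was the longer in 97.7% of shared genes, by a median of 1.71 times. Lengths in the P. maniculatus table were multiples of 3 in 92.8% of shared genes, so they are mostly coding lengths, against 35% in the P. leucopus table. Without division by length the median difference ran from -1.67 in the 65 genes no longer in P. leucopus to 0.98 in the 1995 genes over 3 times longer there. After division it ran from -0.34 to 0.02 over the same classes, with a highest value of 0.27 in the class next to the shortest. Calls for P. maniculatus were still unevenly spread after division, at 30.77% of the genes no longer in P. leucopus and 14.79% of those over 3 times longer, against 2.73 to 5.14% in the classes between.

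**Figure D1:**
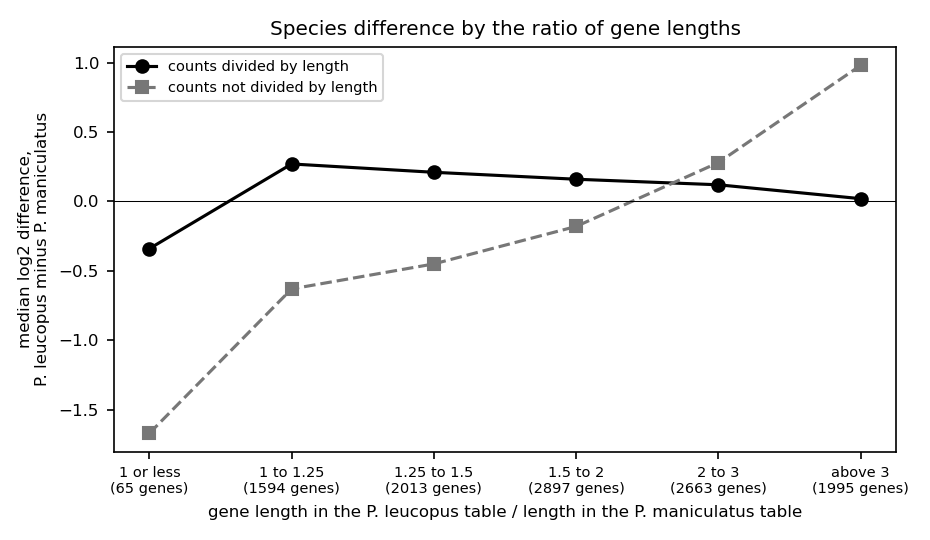
Median log2 difference between the species (P. leucopus minus P. maniculatus, y axis) in classes of the ratio of gene lengths between the tables (x axis, with the number of genes), with counts divided by length (black, solid) and not divided (grey, dashed). The dashed line climbs from -1.67 to 0.98, whereas the solid line stays between -0.34 and 0.27.

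Genes of oligodendrocytes and myelin were higher in young P. leucopus. Of the 10 genes on this list 9 were called higher there and 1, MAG, was called higher in P. maniculatus, against 10.2% and 6.04% of all genes, with a list median of 1.53 against 0.17 over all genes. MBP, which encodes myelin basic protein and lies on chromosome 19 from 72108487 to 72194339 in HU_Pman_2.1, stood at 8902, 10440.2, 8301, 7476, 3505 and 2655 TPM in P. leucopus 1 to 6, and at 812, 1522, 2538, 1485, 3936 and 2219 TPM in P. maniculatus 1 to 6. P. leucopus 1 to 4 lay above all P. maniculatus animals, and P. leucopus 5 and 6 lay within their range. The difference of MBP was 1.72 ± 0.406 (SE, adjusted p = 0.00439), and an exact permutation test of the 2 group means gave a two-sided p of 0.00866. ASPA, which breaks down N-acetylaspartate in oligodendrocytes, lay from 30.9 to 98.6 TPM (median 76.1) in young P. leucopus and from 3.93 to 18.2 TPM (median 11.8) in young P. maniculatus, so that the groups did not overlap (difference 2.56 ± 0.4003 SE, adjusted p = 2.79e-04). Its exact permutation p of 0.00216 is the smallest that 6 against 6 animals allow. ASPA is also among the genes picked for lack of overlap, which fixes that p in advance, so it adds no support. MOG, a protein of the outer myelin surface, had a difference of 1.84 ± 0.375 (SE, adjusted p = 0.00175), and its groups overlapped at the low end of P. leucopus.

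CNP, an enzyme of non-compact myelin, was also called higher at 1.72 (adjusted p = 5.41e-04). MAL, 1.33 (adjusted p = 0.00276), and OPALIN, 1.15 (adjusted p = 0.0114), both membrane proteins of oligodendrocytes, were called as well, as were ERMN, 1.33 (adjusted p = 0.00843), and the tight junction gene CLDN11, 1.22 (adjusted p = 0.0125). CLDN11 and ERMN were not called without division by length, while the others were called on both scales. That condition hardly tests MBP, with 2751 bases in P. leucopus and 981 in P. maniculatus, whose difference rose to 2.12 without length. For MOG and ASPA the difference fell, to 1.67 and 1.94. MAG, an adhesion protein of the innermost myelin layer, stood from 15.6 to 57.05 TPM (median 35.8) in young P. leucopus and from 77.4 to 395 TPM (median 194) in young P. maniculatus , with all P. maniculatus animals above all P. leucopus. Its call rested on which rows of the P. leucopus table are counted: an unnamed row carries the symbol MAG in a later RefSeq annotation of the species, and with both rows summed P. leucopus lay from 191 to 658 TPM and the difference became 1.02 ± 0.401 (SE, adjusted p = 0.0548).

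Summed over the 10 genes, the myelin level of young P. leucopus 1 to 4 was 21486 (animal 1), 22078 (animal 2), 18054 (animal 3) and 17211 TPM (animal 4), whereas animals 5 and 6 stood at 7966 and 6609 TPM. The 6 P. maniculatus animals ranged from 2147 to 8044 TPM. The 4 animals high in myelin were also those with the lowest summed forebrain markers among the P. leucopus, 980.9, 422.5, 651.3 and 552.3 TPM, against 4606 and 2439 TPM in animals 5 and 6. With the summed levels of forebrain, cerebellar, and hypothalamic and midbrain markers as covariates, a fit added after the data had been seen, the same numbers of list members were called, 9 higher and 1 lower (15.4% and 7.68% of all genes), and the MBP difference was 1.89 (adjusted p = 4.27e-04). These are markers of regions and not of white matter, and the white matter content of the pieces was not measured.

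**Figure D2:**
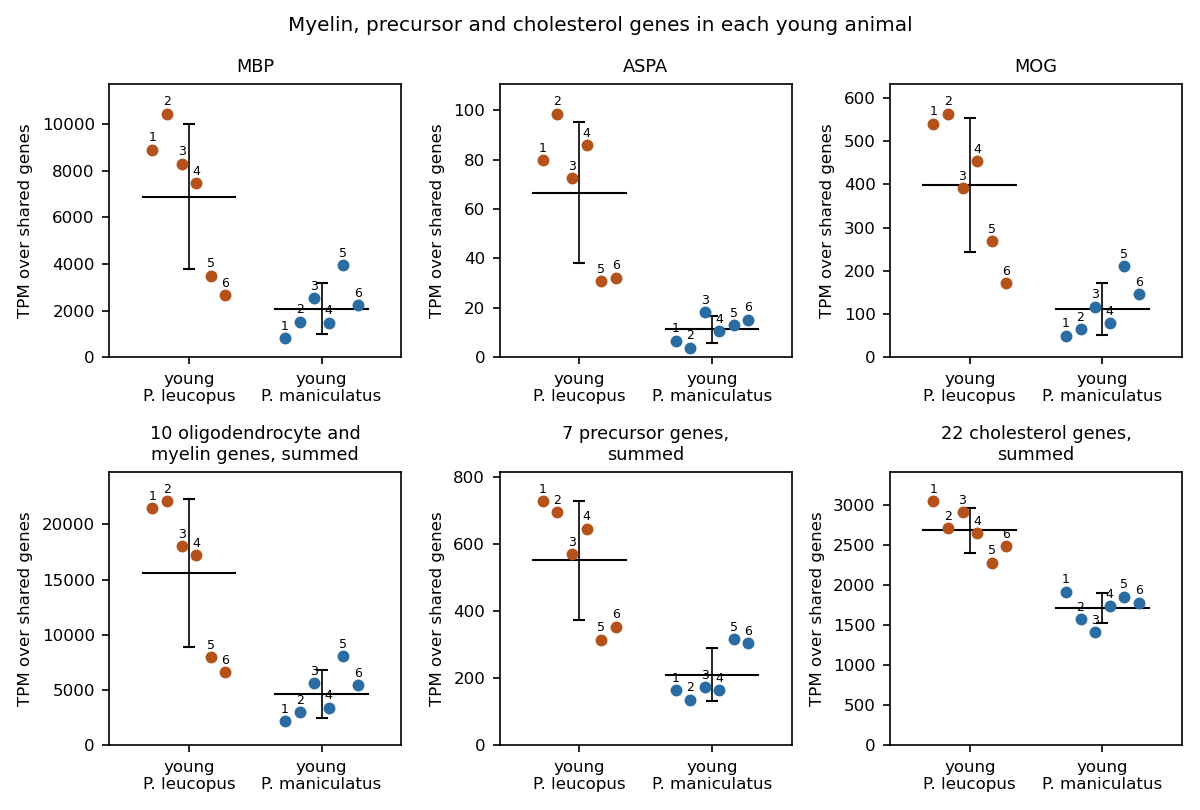
Levels (TPM over shared genes, y axes from 0) of MBP, ASPA, MOG and of 3 summed gene lists in the 6 young P. leucopus (orange) and 6 young P. maniculatus (blue), with the animal's number at each point, the mean as a line and the SD as a bar. P. leucopus 5 and 6 lie nearest to P. maniculatus among the P. leucopus for MBP, ASPA, MOG and the myelin sum, and the cholesterol sums of the 2 groups do not overlap.

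Markers of oligodendrocyte precursors, the dividing cells from which oligodendrocytes arise, followed the same direction. Of 7 members, 4 were called higher in P. leucopus and none in P. maniculatus (10.2% and 6.04% of all genes), 6 passed the adjusted p, and the median was 1.11. OLIG1, a transcription factor of the lineage, lay from 156 to 393 TPM (median 311) in young P. leucopus and from 58.4 to 132 TPM (median 65.9) in young P. maniculatus, with no overlap (difference 1.72 ± 0.302 SE, adjusted p = 6.26e-04). SOX10, which drives myelin genes, differed by 1.37 (adjusted p = 0.00135), GPR17, a receptor of cells about to mature, by 1.49 (adjusted p = 0.00537), and the growth factor receptor gene PDGFRA by 1.11 (adjusted p = 0.00726). CSPG4, the NG2 proteoglycan, passed the adjusted p at 0.62 (adjusted p = 0.0108) but not the fold limit, and without division by length its difference was -0.23. With TMM factors PDGFRA was at 0.95, short of the fold limit. The summed level was from 314 to 726 TPM (median 607) in young P. leucopus and from 135 to 315 TPM (median 169) in young P. maniculatus. As OLIG1 and SOX10 are not confined to precursors, neither the list nor its sum separates precursors from oligodendrocytes.

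The old animals, 25 to 29 months of age, were not used in the young comparison. In them 0 of the 10 myelin genes were called higher in P. leucopus and 1 in P. maniculatus (17.3% and 6.67% of all genes), and the list median was 0.08 against 0.285 over all genes. The 1 was MAG on its named row, at -4.25. With its 2 rows summed MAG was at -0.52 (adjusted p = 0.105). The MBP difference was 0.28 (adjusted p = 0.415) and that of ASPA 0.98 (adjusted p = 0.0460). Old P. leucopus had summed myelin levels of 3282 to 8795 TPM and old P. maniculatus of 2883 to 6300. The change of the MBP difference between ages, 1.44, had an adjusted p of 0.234 in the test over all 24 animals, so a difference between the ages was not shown.

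Of 21 genes of cholesterol biosynthesis and its regulation, 4 were called higher in young P. leucopus and none in P. maniculatus, against 10.2% and 6.04% of all genes. This pathway builds cholesterol from acetyl units, and in the brain supplies the membranes of myelin and synapses. Past the adjusted p were 16 members with P. leucopus higher and 1 with P. maniculatus higher, against 28.0% and 15.4% of all genes, and the median was 0.64. With TMM factors 10 and 1 passed, and without division by length 9 and 2. The summed level lay from 2276 to 3039 TPM (median 2678) in young P. leucopus and from 1405 to 1915 TPM (median 1754) in young P. maniculatus, without overlap. The lowest P. leucopus sums were 2276 TPM in animal 5 and 2485 TPM in animal 6, the 2 animals of that species lowest in myelin and highest in forebrain markers. With the region levels as covariates 4 and 0 members were called and the median was 0.57.

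INSIG1, which holds back the sterol-sensing machinery when sterol is plentiful, on chromosome 3 from 64943281 to 64950463 in HU_Pman_2.1, stood at 194, 192, 235, 189.7, 107 and 142 TPM in P. leucopus 1 to 6 and at 43.6, 32.6, 54.7, 48.5, 42.6 and 45.1 TPM in P. maniculatus 1 to 6. Each P. leucopus animal was above each P. maniculatus animal, and the difference was 1.99 ± 0.185 (SE, adjusted p = 5.47e-06). SC5D, a sterol desaturase, differed by 1.24 ± 0.142 (SE, adjusted p = 2.73e-05), again without overlap. Both genes were called on both scales.

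HMGCS1, an early enzyme, differed by 0.90 (adjusted p = 5.00e-04), short of the fold limit. EBP, a sterol isomerase, passed the adjusted p in the other direction at -0.75 (adjusted p = 0.00471). FDPS, LSS, TM7SF2 and the regulator SREBF2 did not pass, with SREBF2 at 0.22 (adjusted p = 0.233). In the old animals 7 of the 21 were called higher in P. leucopus and none in P. maniculatus (17.3% and 6.67% of all genes), or 7 and 1 without old P. maniculatus 4. The median was 0.63, against 0.285 over all genes in old animals.

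Astrocyte genes differed by uneven amounts. Of 12 members, 2 were called higher in P. leucopus and 1 in P. maniculatus, against 10.2% and 6.04% of all genes. Past the adjusted p were 6 and 1 (28.0% and 15.4% of all genes), and the median was 0.59 against 0.17. AQP4, the water channel of astrocyte end-feet, lay from 115 to 539 TPM (median 294) in young P. leucopus and from 17.9 to 148 TPM (median 59.5) in young P. maniculatus, with an overlap between P. maniculatus 3 and the lowest P. leucopus animal (difference 2.25 ± 0.482 SE, adjusted p = 0.00240). SLC1A2, the main glutamate transporter, lay from 434 to 804 TPM (median 515) in young P. leucopus and from 109 to 253 TPM (median 176) in young P. maniculatus, without overlap (difference 1.68 ± 0.235 SE, adjusted p = 1.29e-04). GFAP, the astrocyte intermediate filament, had a difference of 0.00 (adjusted p = 0.999), and ALDH1L1, a folate enzyme of astrocytes, of 0.42 (adjusted p = 0.0322). ALDH1L1 turned to -0.47 without division by length and no longer passed when any of 7 single animals was left out, with the highest adjusted p, 0.0734, without P. leucopus 3. The member called for P. maniculatus, and the only one past the adjusted p in that direction, was GLUL. Its row was at 0 counts in P. leucopus and is described with the genes near 0.

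Markers of blood vessels were called higher in P. leucopus for 3 of 10 members and lower for none (10.2% and 6.04% of all genes). Past the adjusted p were 6 for P. leucopus (28.0% of all genes), and the median was 0.59 against 0.17. VWF, the clotting factor of endothelium, lay from 8.61 to 21.9 TPM (median 10.2) in young P. leucopus and from 2.33 to 5.45 TPM (median 3.98) in young P. maniculatus (difference 1.64 ± 0.280 SE, adjusted p = 5.21e-04), CDH5, an endothelial cadherin, differed by 1.13 (adjusted p = 3.31e-04) and the VEGF receptor gene FLT1 by 1.003 (adjusted p = 5.19e-04), each without overlap of the groups. None of these 3 was called without division by length, and 1 of 10 was called with TMM factors. CLDN5, the main tight junction gene of the blood-brain barrier, had a difference of 0.10 (adjusted p = 0.753).

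Microglial markers were called higher in P. leucopus in 0 and in P. maniculatus in 3 of 12 members (10.2% and 6.04% of all genes), 1 and 5 passed the adjusted p (28.0% and 15.4% of all genes), and the median was -0.29. With rows of the same symbol summed, as for TREM2 below, 0 and 2 were called, 2 and 4 passed, and the median was 0.00. C1QC, a chain of complement C1q, lay from 45.7 to 66.4 TPM (median 49.8) in young P. leucopus and from 63.3 to 169 TPM (median 126) in young P. maniculatus (difference -1.19 ± 0.199 SE, adjusted p = 4.46e-04), and AIF1, which encodes IBA1, differed by -1.33 (adjusted p = 6.60e-04), a call that was not made without division by length. TREM2, a lipid-sensing receptor, had 0 counts in all 6 P. leucopus on its named row, but a further unnamed row holds the gene, and with both summed it lay from 10.4 to 18.7 TPM in P. leucopus against 7.88 ± 2.88 TPM (SD, n = 6) in P. maniculatus, a difference of 0.70 ± 0.249 (SE, adjusted p = 0.0374). The defining receptors CSF1R, 0.38 (adjusted p = 0.148), CX3CR1, 0.62 (adjusted p = 0.0718), and P2RY12, 0.22 (adjusted p = 0.493), did not pass. Without P. maniculatus 6 CSF1R passed at 0.54 (adjusted p = 0.0339) and CX3CR1 at 0.77 (adjusted p = 0.0333), and CX3CR1 also without P. maniculatus 1 at 0.73 (adjusted p = 0.0480).

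Neuronal markers were called in 1 of 12 members in each direction (10.2% and 6.04% of all genes), and 2 in each direction passed the adjusted p (28.0% and 15.4%), with a median of 0.00. RBFOX3, which encodes the neuronal nuclear antigen NeuN, lay from 72.6 to 198 TPM (median 85.9) in young P. leucopus and from 169 to 456 TPM (median 297) in young P. maniculatus (difference -1.42 ± 0.2998 SE, adjusted p = 0.00223). NEFM, a neurofilament subunit, differed by 1.36 (adjusted p = 0.0357), and this no longer passed when any of 7 single animals was left out, with the highest adjusted p, 0.0850, without P. leucopus 2. Neither was called without division by length, nor NEFM with TMM factors. SNAP25, a protein of transmitter release, showed 4696 ± 689 TPM in P. leucopus and 4561 ± 1311 TPM in P. maniculatus (mean ± SD, n = 6) and a difference of 0.04 (adjusted p = 0.870).

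Markers of brain regions varied widely between animals of each species. The summed forebrain markers lay from 422 to 4606 TPM (median 816) in young P. leucopus and from 847 to 4297 TPM (median 1142) in young P. maniculatus. Cerebellar markers lay from 547 to 1505 TPM (median 844) in young P. leucopus and from 749 to 9961 TPM (median 1047) in young P. maniculatus, where the highest value was that of P. maniculatus 3 and the other 5 of that species reached at most 1227 TPM. Hypothalamic and midbrain markers lay from 64.5 to 2286 TPM (median 202) in young P. leucopus and from 66.7 to 4902 TPM (median 342) in young P. maniculatus, and those of choroid plexus and ependyma from 75.3 to 39421 TPM (median 2518) in young P. leucopus and from 278 to 16557 TPM (median 2753) in young P. maniculatus. The groups overlapped in each of these 4 sums. How far the piece of brain taken from each animal sets these levels was not tested.

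**Figure D3:**
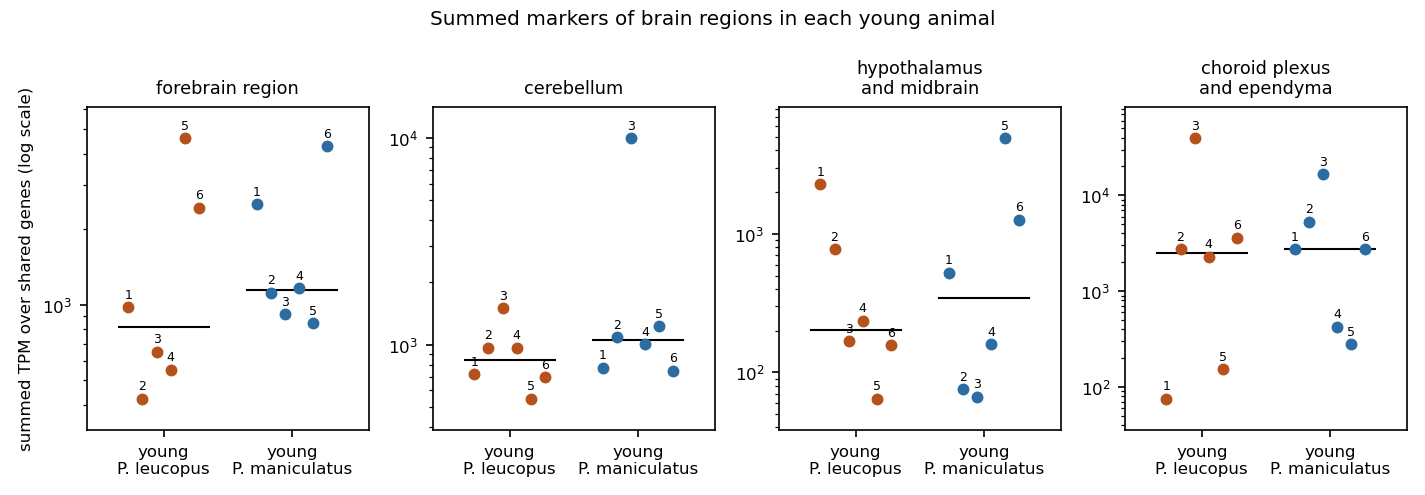
Summed marker levels of 4 brain regions (TPM over shared genes, log axes) in each young animal, numbered, with P. leucopus in orange, P. maniculatus in blue and the median as a line. P. maniculatus 3 stands alone in cerebellar markers at 9961 TPM, and P. leucopus 3 is the highest for choroid plexus at 39421 TPM.

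Of the members tested, 2 of 15 forebrain, 2 of 11 hypothalamic and midbrain and 2 of 9 choroid plexus markers were called higher in P. leucopus and 0 in P. maniculatus, and of 10 cerebellar markers 0 and 1 (10.2% and 6.04% of all genes). Several of these calls rested on single animals. TTR, the carrier protein secreted by the choroid plexus and one of the most abundant transcripts, ranged from 30.9 to 38936 TPM (median 2463) in young P. leucopus and from 263 to 16411 TPM (median 2686) in young P. maniculatus and did not pass (0.78, adjusted p = 0.660). KL, which encodes klotho, differed by 3.03 (adjusted p = 0.0284), and without P. leucopus 3 by 0.83 (adjusted p = 0.214), while leaving out P. maniculatus 2, 4 or 5 gave adjusted p of 0.0548 to 0.0563. SLC4A5, a bicarbonate transporter of the choroid plexus, differed by 2.38 (adjusted p = 0.0244), and without that animal by 1.21 (adjusted p = 0.0942), while leaving out P. maniculatus 2 or 4 gave 0.0513 and 0.0511. CALB1, a calcium-binding protein of Purkinje cells, was called higher in P. maniculatus at -1.72 (adjusted p = 0.0203), with P. maniculatus 3 at 1482 TPM, and without that animal its difference was -0.96, short of the fold limit. The serotonin enzyme gene TPH2, 3.44 (adjusted p = 0.0382), and DDC, 1.59 (adjusted p = 0.0432), shared by serotonin and dopamine neurons, each no longer passed when any of 8 single animals was left out, with the highest adjusted p at 0.0829 without P. leucopus 2 for TPH2 and 0.104 without P. leucopus 1 for DDC. PROX1, a factor of dentate granule cells, 1.72 (adjusted p = 0.0153), and RORB, a factor of layer IV cortex, 1.31 (adjusted p = 0.0213), were called on both scales, RORB at 0.82, short of the fold limit, without P. leucopus 6. PROX1 and RORB are 3.52 and 4.245 times longer in P. leucopus, so the condition of both scales hardly tests them. SLC4A5, CALB1, TPH2 and DDC were not called without division by length.

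Neuropeptides and their receptors were called in 3 of 43 members for P. leucopus and 5 for P. maniculatus (10.2% and 6.04% of all genes), with a median of -0.38. Past the adjusted p were also 3 and 5 (28.0% and 15.4% of all genes). GRPR, the receptor of gastrin-releasing peptide, lay from 1.31 to 3.46 TPM (median 2.44) in young P. leucopus and from 0 to 1.16 TPM (median 0.351) in young P. maniculatus, without overlap (difference 2.58 ± 0.572 SE, adjusted p = 0.00304). Its P. maniculatus levels rest on 0 to 7 counts per library, and its length was 8319 bases in P. leucopus and 1155 in P. maniculatus. VIPR2, a receptor of vasoactive intestinal peptide, differed by 2.19 (adjusted p = 0.0267) and no longer passed when any of 5 single animals was left out, at an adjusted p of up to 0.0647 without P. leucopus 6. SST, the transmitter of somatostatin interneurons, was higher in P. maniculatus, with 460.0 ± 103 TPM in P. leucopus and 993 ± 441 TPM in P. maniculatus (difference -1.11 ± 0.326 SE, adjusted p = 0.0152). SSTR1, one of its receptors, had 0 counts in all 6 P. leucopus and a mean of 30.2 TPM in P. maniculatus. Its gene model has 19 exons over 16107 bases in P. leucopus and 1 exon of 1176 bases in P. maniculatus. The old P. leucopus were at 0 as well, and whether the gene is silent was not tested. CCKBR, a cholecystokinin receptor, lay from 0 to 7.76 TPM (median 1.21) in young P. leucopus and from 5.87 to 62.8 TPM (median 35.4) in young P. maniculatus, the highest P. leucopus animal overlapping the lowest P. maniculatus (difference -4.11 ± 0.876 SE, adjusted p = 0.00235). The hypothalamic peptides AVP and OXT, vasopressin and oxytocin, had differences of -2.23 (adjusted p = 0.276) and -2.35 (adjusted p = 0.195), which without P. leucopus 1 became -6.08 (adjusted p = 0.0121) and -4.94 (adjusted p = 0.0205).

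Antioxidant and glutathione enzymes were called higher in P. leucopus in 4 of 32 members and higher in P. maniculatus in 1 (10.2% and 6.04% of all genes). Past the adjusted p were 10 and 3 (28.0% and 15.4% of all genes). With TMM factors the calls were 2 and 2. The largest was GSTM3, a mu-class glutathione transferase on chromosome 6 from 83926627 to 83931830 in HU_Pman_2.1, with levels from 202 to 335 TPM (median 319) in young P. leucopus and from 3.697 to 12.1 TPM (median 5.88) in young P. maniculatus and a difference of 5.37 ± 0.305 (SE, adjusted p = 7.02e-08). Reads of near-identical mu-class genes can be divided between copies by the authors' counting, so the level of this single gene is uncertain. SOD3, the secreted superoxide dismutase, differed by 1.70 (adjusted p = 0.00239), and GPX8, a peroxidase of the endoplasmic reticulum, by 1.08 (adjusted p = 0.0259). Without P. leucopus 3 GPX8 was at 0.88 (adjusted p = 0.0633), and it did not pass without P. maniculatus 2, 4 or 6 either (0.0529 to 0.0583). CAT, catalase, stood just past the fold limit at 1.01 (adjusted p = 4.68e-04), and neither GPX8 nor CAT was called without division by length. MGST1, a microsomal glutathione transferase, was higher in P. maniculatus and lay from 0.865 to 6.73 TPM (median 2.299) in young P. leucopus and from 9.13 to 39.6 TPM (median 20.8) in young P. maniculatus (difference -2.92 ± 0.528 SE, adjusted p = 7.85e-04).

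Few genes of protein quality control were called past the fold limit, at shares below those of all genes. Without the fold limit this does not hold for P. leucopus. Past the adjusted p were 10 and 3 of 26 unfolded protein response genes and 7 and 2 of 19 heat shock genes (28.0% and 15.4% of all genes). With TMM factors these were 6 and 5, and 4 and 3 (19.9% and 21.4% of all genes). In the unfolded protein response list 2 of 26 were called higher in P. leucopus, SEL1L, 1.59 (adjusted p = 6.67e-05), an adaptor of endoplasmic reticulum degradation, and ERN1, 1.53 (adjusted p = 2.67e-04), the stress sensor IRE1, both on both scales. SEL1L and ERN1 are 2.675 and 2.346 times longer in P. leucopus, so the condition of both scales hardly tests them. The 1 called for P. maniculatus, EDEM1, had 0 counts in P. leucopus on its named row and a difference of -0.11 ± 0.167 (SE, adjusted p = 0.629) with its 2 rows summed. Heat shock proteins had 1 call in each direction of 19, HSPB1 at 1.53 (adjusted p = 7.61e-04), not called without division by length, and HSPA1L at -1.35 (adjusted p = 1.81e-04). Proteasome subunits had 1 of 30, the ATPase PSMC4 at 1.13 (adjusted p = 1.12e-06), and 10 and 3 passed the adjusted p. Without division by length none of the 30 was called, 1 and 26 passed, and the median went from 0.15 to -0.61, so the direction of this list turned with the length term.

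Among 42 lysosome and autophagy genes 2 were called higher in P. leucopus and 3 in P. maniculatus, against 10.2% and 6.04% of all genes. NPC1, the cholesterol exporter of the lysosome, differed by 1.49 (adjusted p = 4.25e-04) and ARSB, a sulfatase, by 1.45 (adjusted p = 3.53e-05). GABARAP, -1.20 (adjusted p = 5.94e-07), and MAP1LC3A, -1.03 (adjusted p = 9.16e-06), small proteins of the autophagosome membrane, were higher in P. maniculatus. NPC1, at 0.67, GABARAP and MAP1LC3A were not called without division by length. CTSB, the protease cathepsin B, was the other call for P. maniculatus at -1.002 (adjusted p = 2.82e-06). Of 39 genes tied to amyloid and neurodegeneration, 4 were called for P. maniculatus and 3 for P. leucopus (6.04% and 10.2% of all genes). Past the adjusted p were 15 with P. leucopus higher and 9 with P. maniculatus higher (28.0% and 15.4% of all genes), and the median was 0.19. The 4 include TREM2 on its named row, at 0 counts in P. leucopus. With rows of the same symbol summed 3 were called in each direction (10.2% for P. leucopus and 5.81% for P. maniculatus of all genes). Then 16 passed the adjusted p for P. leucopus and 8 for P. maniculatus, with a median of 0.20.

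TARDBP, an RNA-binding protein that aggregates in motor neuron disease, was at -1.05 (adjusted p = 2.21e-06) and the secretase BACE2 at -1.43 (adjusted p = 0.00170), neither called without length. MME, the amyloid-degrading protease neprilysin, was higher in P. leucopus at 1.65 (adjusted p = 0.0141), as were the sorting receptor SORL1 at 1.42 (adjusted p = 0.00371) and MAPT, the tau gene, at 1.13 (adjusted p = 1.91e-06), the last not called without length. APP itself had a difference of 0.49 (adjusted p = 0.00224), and the levels of APOE, the main apolipoprotein of the brain, were 5683 ± 571 TPM in P. leucopus and 5719 ± 991 TPM in P. maniculatus (mean ± SD, n = 6, difference -0.01, adjusted p = 0.959).

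Of 42 DNA repair genes 7 were called higher in P. leucopus and 2 in P. maniculatus, against 10.2% and 6.04% of all genes. BRCA1, a homologous recombination gene, lay from 0.854 to 2.501 TPM (median 2.22) in young P. leucopus and from 0.106 to 0.579 TPM (median 0.362) in young P. maniculatus, without overlap (difference 2.52 ± 0.393 SE, adjusted p = 2.78e-04). MGMT, which removes alkyl groups from guanine, differed by 1.74 (adjusted p = 0.00257), the nuclease gene ERCC4 by 1.71 (adjusted p = 1.47e-05) and the damage sensor DDB2 by 1.72 (adjusted p = 2.28e-04). BRCA1, MGMT and ERCC4 were called on both scales, and DDB2 was not. The 2 for P. maniculatus were XRCC4, -1.39 (adjusted p = 4.52e-06), a partner in end joining, and XRCC3, -1.31 (adjusted p = 2.67e-04), of homologous recombination, neither called without length. Without length division the list had 3 and 2 calls, and 4 and 20 past the adjusted p against 12 and 2 with it.

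Interferon and antigen presentation genes were called in 3 of 26 members for P. leucopus and 0 for P. maniculatus, against 10.2% and 6.04% of all genes. The share for P. leucopus is near that of all genes, and the median was 0.19 against 0.17. The called genes were TRIM25, 1.66 (adjusted p = 0.00211), SAMHD1, 1.26 (adjusted p = 0.00179), and IRF7, 1.13 (adjusted p = 0.0336). IRF7 no longer passed when any of 8 single animals was left out (adjusted p up to 0.0787, without P. leucopus 6). Without division by length SAMHD1 was at 0.28 and IRF7 at 0.60, neither called, and the list had 1 call in each direction. Clock genes were called in 5 of 19 for P. leucopus and 2 for P. maniculatus (10.2% and 6.04% of all genes), and with TMM factors in 2 and 2 (7.28% and 8.19%). CLOCK itself differed by 1.55 (adjusted p = 6.33e-05), the period gene PER3 by 1.15 (adjusted p = 0.0183), the repressor NR1D2 by 1.01 (adjusted p = 0.00930) and the kinase CSNK1D by 1.13 (adjusted p = 1.70e-05), and NFIL3 was higher in P. maniculatus at -1.08 (adjusted p = 0.00150), not called without length. BHLHE40, the other call, had a difference of 0.17 ± 0.272 (SE, adjusted p = 0.631) with its 2 rows summed. The labels give no time of day at collection.

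Immediate early genes, which neurons switch on within minutes of activity, had 0 calls for P. leucopus and 2 of 21 for P. maniculatus, BDNF and HOMER1 (10.2% and 6.04% of all genes). BDNF, a growth factor of synapses, lay from 2.22 to 4.18 TPM (median 3.33) in young P. leucopus and from 17.6 to 63.5 TPM (median 49.7) in young P. maniculatus, without overlap (difference -3.74 ± 0.346 SE, adjusted p = 5.22e-06), although its length was 10040 bases in the P. leucopus table and 771 in the P. maniculatus table. Without division by length its difference was -1.16 (adjusted p = 0.00881), so its size depends on the length term. HOMER1 had -0.16 ± 0.559 (SE, adjusted p = 0.838) with its 2 rows summed. With the region levels as covariates 0 and 11 of the 21 were called, against 15.4% and 7.68% of all genes, and the median went from -0.54 to -1.30. In the old animals 0 and 7 were called (17.3% and 6.67% of all genes), or 0 and 5 without old P. maniculatus 3 or 4. The 7 include HOMER1 on its named row. Synaptic vesicle genes were called in 4 of 33 members for P. leucopus and none for P. maniculatus (10.2% and 6.04% of all genes). With TMM factors the calls were 1 and 0 (7.28% and 8.19% of all genes). SYT11, a synaptotagmin, differed by 1.05 (adjusted p = 3.50e-05), BSN, the scaffold Bassoon, by 1.39 (adjusted p = 0.0174), and SLC17A6, 1.71 (adjusted p = 0.0486), and SV2C, 1.64 (adjusted p = 0.0413), no longer passed when any of 9 and of 6 single animals was left out, at adjusted p of up to 0.103 (without P. leucopus 1) and 0.0862 (without P. leucopus 3). BSN, SLC17A6 and SV2C were not called without division by length.

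Ribosomal protein genes were called in 2 of 30 members in each direction (10.2% and 6.04% of all genes), with a median of -0.08. Past the adjusted p were 5 and 4 (28.0% and 15.4% of all genes). RPS23 was at 1.15 (adjusted p = 1.67e-05), higher in P. leucopus, and RPL22 at -1.25 (adjusted p = 1.99e-07), higher in P. maniculatus. Without division by length RPS23 was at 0.05 and RPL22 at 0.17, neither called, and RPS23 fell short of the fold limit at 0.98 with TMM factors and 0.96 with region covariates. The other call for P. maniculatus was RPL38, described below. Ribosomal proteins have many processed copies, so reads can be divided between them and their single values are uncertain. Markers of blood had 0 calls in the 2 members tested, those of pituitary and pineal 1 of 2, AANAT at 1.19 (adjusted p = 0.0236), and those of olfactory bulb 1 of 6, the neuropeptide gene NMB at -1.66 (adjusted p = 0.0189), which without P. maniculatus 2 was at -1.36 (adjusted p = 0.0521). Neither AANAT nor NMB was called without division by length.

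The largest single differences were sought among genes of like length, within 1.5-fold between the tables, that were called on both scales with no overlap between the animals. These conditions were met by 36 genes higher in P. leucopus and 54 higher in P. maniculatus. At like length, dropping the length term lowers the difference, as from 5.37 to 4.66 for GSTM3 and from -6.16 to -7.405 for CCT3. The condition of both scales is therefore strict for P. leucopus and hardly tests P. maniculatus, so the 36 and 54 do not compare the directions. The genes described here are among the 12 with the largest difference in each direction. After GSTM3, the next for P. leucopus was MYBPC3, a myosin-binding protein known from heart muscle, which lay from 47.8 to 60.8 TPM (median 53.8) in young P. leucopus and from 0.832 to 2.27 TPM (median 1.898) in young P. maniculatus (difference 4.95 ± 0.213 SE, adjusted p = 5.35e-09). RETSAT, which saturates retinol, lay from 202 to 598 TPM (median 494) in young P. leucopus and from 46.3 to 116 TPM (median 62.05) in young P. maniculatus (difference 2.68 ± 0.2997 SE, adjusted p = 2.27e-05), and IL17RA, a receptor of interleukin-17, differed by 2.44 (adjusted p = 7.40e-05). CFAP157, 3.08 (adjusted p = 4.52e-06), and DLEC1, 2.93 (adjusted p = 2.80e-04), belong to cilia.

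Genes of cell division were also among them, the mitotic kinesin KIF20A at 2.53 (adjusted p = 1.15e-05) and the kinetochore gene CENPH at 2.46 (adjusted p = 2.36e-05). PIK3R6, a regulatory subunit of phosphoinositide 3-kinase, was at 2.88 (adjusted p = 4.79e-05) and PMFBP1, known from sperm, at 2.47 (adjusted p = 0.00242). KIF20A was low in both species, and lay from 4.67 to 6.67 TPM (median 5.45) in young P. leucopus and from 0.552 to 1.43 TPM (median 0.888) in young P. maniculatus.

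**Figure D4:**
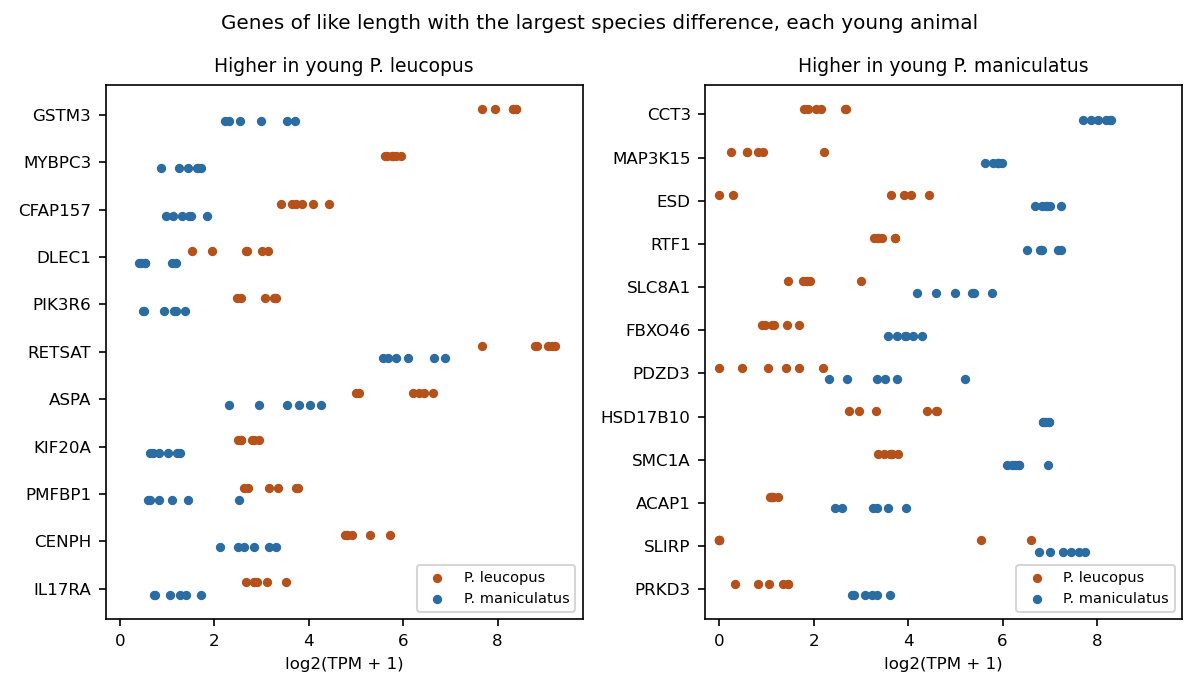
Levels as log2(TPM + 1) (x axes) of 11 genes higher in P. leucopus and 12 higher in P. maniculatus (y axes), from the genes of like length with the largest differences, 1 point per young animal, P. leucopus in orange and P. maniculatus in blue. The groups do not overlap in any of the 23 genes, and for SLIRP and ESD the P. leucopus animals fall into a low and a higher set.

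In the direction of P. maniculatus the largest was CCT3, a subunit of the chaperonin that folds actin and tubulin, which lay from 2.46 to 5.44 TPM (median 3.31) in young P. leucopus and from 207 to 313 TPM (median 274) in young P. maniculatus (difference -6.16 ± 0.228 SE, adjusted p = 1.49e-09). Its gene spanned 17711 bases on chromosome 6 from 66165997 to 66183707 in HU_Pman_2.1 but 1478 bases, from 5744101 to 5745578 on a scaffold of Pero_0.1, in the P. leucopus annotation, so the 2 gene models differ in introns although the lengths counted are alike. MAP3K15, a stress-activated kinase, lay from 0.189 to 3.66 TPM (median 0.627) in young P. leucopus and from 48.7 to 62.4 TPM (median 58.95) in young P. maniculatus (difference -5.70 ± 0.521 SE, adjusted p = 4.79e-06), with spans of 127157 and 131264 bases. RTF1, a factor of transcription elongation, lay from 8.704 to 12.2 TPM (median 9.57) in young P. leucopus and from 90.95 to 150.1 TPM (median 112) in young P. maniculatus (difference -3.55 ± 0.151 SE, adjusted p = 4.96e-09), with spans of 59965 and 58156 bases. HSD17B10, a mitochondrial dehydrogenase, was at -3.04 (adjusted p = 1.91e-05), the kinase PRKD3 at -2.76 (adjusted p = 6.56e-05), ACAP1, a regulator of Arf proteins, at -2.87 (adjusted p = 1.20e-05), FBXO46 at -3.41 (adjusted p = 6.23e-07) and PDZD3 at -3.10 (adjusted p = 0.00427).

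SLIRP, a protein that stabilizes mitochondrial RNA, was at 0 in 4 P. leucopus animals and at 95.4 TPM and 45.7 TPM in animals 3 and 5, against levels from 108 to 215 TPM (median 164) in P. maniculatus. Its difference of -2.77 (adjusted p = 0.0489) no longer passed when any of 9 single animals was left out, at an adjusted p of up to 0.0829 without P. maniculatus 2. ESD, an esterase that hydrolyzes S-formylglutathione, stood at 0, 14.03, 11.3, 20.8, 0.215 and 15.8 TPM in P. leucopus 1 to 6 and from 102 to 151 TPM (median 121) in P. maniculatus. For ESD, SLC8A1, a sodium-calcium exchanger, and SMC1A, a subunit of cohesin, a further unnamed row was present in the P. leucopus table. With rows summed the differences were -1.93 ± 0.118 (SE, adjusted p = 1.82e-07) for ESD, -0.66 ± 0.249 (SE, adjusted p = 0.0464) for SLC8A1 and -1.57 ± 0.144 (SE, adjusted p = 5.39e-06) for SMC1A, smaller than the -3.56 (adjusted p = 0.00124), -3.42 (adjusted p = 1.75e-05) and -2.91 (adjusted p = 3.69e-08) of the named rows.

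Some genes were listed near 0 in one species and at high levels in the other. In P. leucopus 26 genes had a mean count below 1 with at least 5 TPM in P. maniculatus, and 14 of them were at 0 in all 6 animals. GLUL, the glutamine synthetase of astrocytes, had 0 counts in P. leucopus and levels from 899.6 to 1352 TPM (median 1115) in P. maniculatus, at least 1401-fold higher against a floor of 3 counts in the smallest library of the group. Its P. leucopus model spans 1408 bases, against 5827 in P. maniculatus. RPL38, a ribosomal protein, had 0 counts against levels from 1402 to 1953 TPM (median 1545), at least 655-fold higher. LAMTOR2, a lysosomal scaffold of mTOR signalling, had 1 count in 6 P. leucopus libraries against levels from 286 to 359 TPM (median 311), and HMGN3, a nucleosome-binding protein, 1 count against levels from 141 to 246 TPM (median 190.0). HMGN3 has a further unnamed row, and with rows summed it lay from 71.8 to 104 TPM in P. leucopus, a difference of -1.21 ± 0.156 (SE, adjusted p = 6.87e-05). Among the old animals these 4 named rows were again near 0, with at most 9 counts over 6 old P. leucopus for any of them.

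In P. maniculatus 9 genes were near 0 with at least 5 TPM in P. leucopus, 2 of them at 0 in all 6 animals. PUDP, a pseudouridine phosphatase, had 0 counts in P. maniculatus, where its model is 702 bases long, and levels from 23.6 to 40.5 TPM (median 33.5) in P. leucopus, at least 35.2-fold higher. TEX101, a surface protein of germ cells, had 5 counts in P. maniculatus against levels from 7.63 to 44.8 TPM (median 21.9), FOXH1, a partner of SMAD proteins, 5 counts against levels from 9.79 to 19.4 TPM (median 13.2), the protease inhibitor A2ML1 4 counts against levels from 4.01 to 40.2 TPM (median 8.32) and the crystallin CRYBA2 4 counts against levels from 1.16 to 19.7 TPM (median 8.54). A gene at 0 in the table of one species is a statement on the counted gene model. Whether the gene is silent was not tested.

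Calls were also counted by the annotated spans of the genes, and whether the span sets a gene's level was not tested. Where the P. leucopus span was over 3 times shorter than that in P. maniculatus, 15 of 55 genes (27.27%) were called higher in P. maniculatus and 7 (12.73%) higher in P. leucopus. Of 10314 genes with other spans the shares were 5.51% and 10.21%. Where the P. maniculatus span was the shorter by over 3 times, 82 of 858 genes (9.56%) were called higher in P. leucopus and 95 (11.07%) higher in P. maniculatus, against 10.21% and 5.51% of the genes with other spans.

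Genes with very different counted lengths were checked one by one. Of those longest in P. leucopus, IGIP had 13346 bases there and 162 in P. maniculatus, and its difference was -2.65 per length and 2.60 without length. OST4, a subunit of oligosaccharyltransferase with 3212 and 114 bases, gave -3.17 and 0.54, SMIM10L1 with 4980 and 204 bases gave -1.25 and 2.26, and AKAIN1 with 4305 and 207 bases gave -0.71 (adjusted p = 0.270) and 2.57. TMEM170B, with 7991 and 399 bases, was called higher in P. leucopus on both scales at 1.88 (adjusted p = 4.51e-05). Its difference without length was 5.10, and with the longer gene in P. leucopus its direction could not turn. These values show a direction that turns with the length term in 4 of the 5.

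Of those longer in P. maniculatus, PCDHAC2, a protocadherin with 6407 and 24582 bases, gave 0.36 per length and -2.69 without, ANKRD24, with 1347 and 3036 bases, 0.36 and -1.91, and the helicase gene DHX9, with 2000 and 4137 bases, 0.24 and -1.90. None of these 3 passed per length in all 12 animals, but PCDHAC2 did without P. leucopus 2 (0.47, adjusted p = 0.0444) and DHX9 without P. maniculatus 3 (0.35, adjusted p = 0.0232). KYAT3, an aminotransferase of the kynurenine pathway, was at -3.93 (adjusted p = 2.55e-07), or -0.83 ± 0.134 (SE, adjusted p = 3.49e-04) with its 2 rows summed, and TWF2, an actin-binding protein, at -1.42 (adjusted p = 2.25e-04), both called on both scales. Without length their named rows were at -6.13 and -3.51. As both are shorter in P. leucopus, the condition of both scales hardly tests them. Over all genes 8 were called higher in P. maniculatus per length and higher in P. leucopus without it, and 0 the other way.

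The most abundant transcripts included genes at like levels and genes far apart. TTR, MBP, APOE and SNAP25 were among the 5 genes with the highest means in young P. leucopus, and TMSB4X, FTH1, APOE, EEF1A1 and NRGN were the 5 highest in young P. maniculatus. EEF1A1, the elongation factor of translation, was at 4642 ± 492 TPM in P. leucopus and 5001 ± 637 TPM in P. maniculatus (mean ± SD, n = 6, difference -0.11, adjusted p = 0.451). FTH1, the ferritin heavy chain, was at 14.7 ± 3.91 TPM in P. leucopus and 7180.5 ± 1282 TPM in P. maniculatus, a difference of -8.93 ± 0.233 (SE, adjusted p = 1.71e-10). Its reads may be divided between processed copies, so the value is uncertain. TMSB4X, an actin-binding peptide, lay from 2665 to 3977 TPM (median 3217) in young P. leucopus and from 4495 to 10179.6 TPM (median 7848) in young P. maniculatus (difference -1.25 ± 0.171 SE, adjusted p = 1.09e-04) and was not called without length. NRGN, neurogranin of forebrain spines, had a difference of -1.34 (adjusted p = 0.284), and with the region markers as covariates it passed at -3.09 (adjusted p = 0.00131).

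The rows that share a gene were followed up across the table. Of the rows for P. leucopus, 9014 carry a locus number in place of a symbol, with 5.20 to 6.25% of the young libraries' counts, and the later RefSeq annotation of the assembly UCI_PerLeu_2.1 gives 60 of them the symbol of a shared gene. Of these genes 49 were tested both ways, a check added after the data had been seen. On the named row alone 42 were called higher in P. maniculatus and 0 higher in P. leucopus. With rows summed 15 were called higher in P. maniculatus, all of them among the 42, and 2 higher in P. leucopus, OSTM1 at 1.39 ± 0.115 (SE, adjusted p = 2.36e-06) and ARHGAP26 at 1.19 ± 0.402 (SE, adjusted p = 0.0303). Summing adds counts in P. leucopus alone, so a move of these genes towards P. leucopus is largely built into the procedure. Over all 11228 genes tested with rows summed the calls were 1140 (10.2%) and 652 (5.81%).

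**Figure D5:**
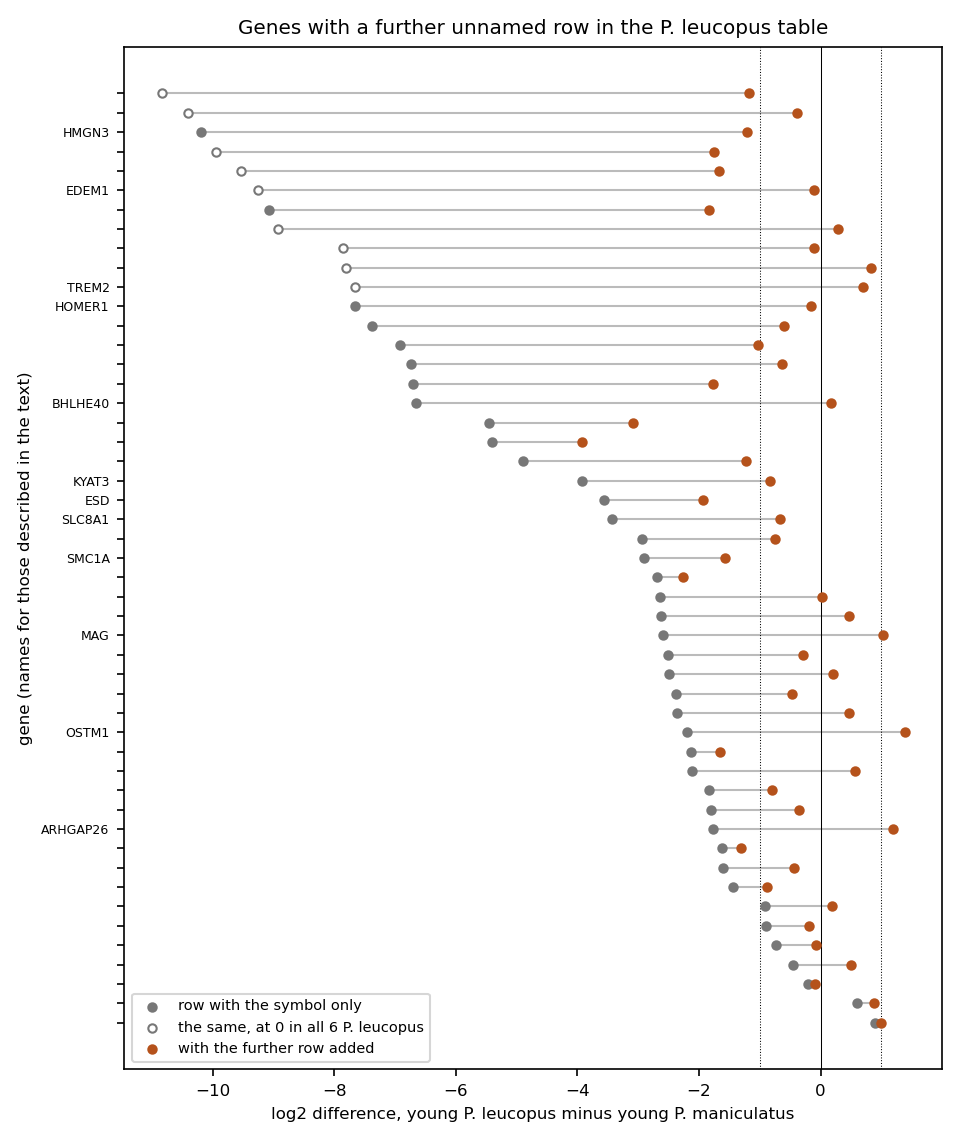
Log2 difference between young P. leucopus and young P. maniculatus (x axis) of 49 genes (y axis, with names for those described in the text) on the row with the symbol alone (grey) and with the further unnamed row added (orange), dotted lines marking the 2-fold limits. Open circles are 9 genes with 0 counts in all 6 P. leucopus on the named row, whose plotted values depend on the fit, and 42 genes lie past the lower limit on the named row but 15 with rows summed.

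The same comparison in the 12 old animals repeats the gene models and not the animals. Among old animals 1953 genes (17.3%) were called higher in P. leucopus and 752 (6.67%) in P. maniculatus. Of the 1142 genes called higher in young P. leucopus, 1114 were tested in old animals, 1091 had the same sign and 831 (74.6%) were called the same way. Of the 678 called higher in young P. maniculatus, 673 were tested, 646 had the same sign and 465 (69.09%) were called. For calls on both scales these shares were 81.12% and 73.8%. Old P. maniculatus 3 and 4 differed by little more than sampling noise, with a chi-square per gene of 1.42. Without animal 3 the old calls were 1747 (15.3%) and 759 (6.66%) and the repeated shares 70.1% and 69.44%, and without animal 4 they were 1761 (15.5%) and 757 (6.64%), with 70.54% and 69.54%. Gene models that count a gene differently in the 2 species act alike at both ages, so the repeat bears on the animals alone.

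A species difference that changed with age would appear as an interaction. No gene of 11659 passed at an adjusted p below 0.05 with edgeR (0%), where the smallest adjusted p was 0.157 and 1847 genes had an unadjusted p below 0.05. DESeq2 called 53 genes on the same counts, with 2013 below the unadjusted 0.05. Leaving out old P. maniculatus 3 or 4 left 0 genes past the threshold.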

How the data were processed

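Brain total RNA of 24 animals, 1 library each, had been made into libraries with a strand-specific kit, and groups were taken from the stock and age in the labels. The values are estimated counts: per the labels and the file headers, the authors ran FastQC 0.11.5, Trim Galore 0.4.5, STAR 2.7.2b, SAMtools 1.5 and featureCounts of Subread 1.5.3, counting read pairs per gene without regard to strand and dividing reads with several hits into fractions. Overlapping and antisense genes therefore share reads. P. leucopus reads were counted on a RefSeq annotation of Pero_0.1 and P. maniculatus reads on Ensembl 101 for HU_Pman_2.1. For P. maniculatus 1 row without a name, 11.82 to 13.6% of each young library, was left out.

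Counts were rounded, filtered with filterByExpr and fitted in edgeR 4.0.16 (quasi-likelihood, glmQLFTest) with an offset of gene length times the per-length total over shared genes. P-values were adjusted by Benjamini-Hochberg over all genes, and SE is the difference divided by the root of F. Alternatives were TMM factors, no length term, a total without the 100 highest genes, genes of like length only, no filter, DESeq2 1.42.0, limma 3.58.1 on log2(TPM + 1), thinned counts, a fit on all 24 animals and leaving out each animal. Fits with rows of the same symbol summed, at the length of the row with more counts, and with region markers as covariates were added after seeing the data. Single values were compared by exact two-sided permutation tests over 924 assignments (SciPy 1.17.1). Intervals of counts and floors of 3 counts per library cover counting error only.

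The members and the 28 gene lists were chosen with earlier results of these data known, so a list's count is a description and no list was tested. Named genes were the 12 per direction with the largest difference among genes called on both scales, of length within 1.5-fold, at least 5 TPM in the higher species, a mean count of at least 10 in each and no overlap, up to 5 per direction near 0 in one species (mean count below 1), the 5 per direction with the most different length, the 5 most abundant per species, up to 4 called members per list, and the first 3 of each cell type list. Any further list member, OSTM1 and ARHGAP26 were picked with their values in view. Scripts were tested on simulated data. Results of some of these genes are not reported here. Sequences of the genes were not used here.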

Additional observations from a re-analysis of the deposited data

Results flagged for a closer look

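In 307 sets of 6 animals, each the levels of a named gene or the summed level of a list in 1 species, 49 had an animal whose gap to its nearest neighbour was over 0.625 of the set's whole range (Dixon's criterion). Chance flags about 1 in 20 such sets, and the sets are not independent, since markers of a region move together. The levels below are TPM of the animal that stood apart.

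P. leucopus 3 stood apart for the choroid plexus sum (39421), TTR (38936), KL (58.2), SLC4A5 (52.3), KCNJ13 (44.2), the cerebellar GABRA6 (51.2) and PCP2 (70.4), and for MAP3K15 (3.66) and SAMHD1 (17.2). P. maniculatus 3 stood apart for the choroid plexus sum (16557), TTR (16411), SLC4A5 (7.17) and KCNJ13 (18.1), for the cerebellar sum (9961) with GABRA6 (691.1), PCP2 (1264) and CALB1 (1482), for the astrocyte sum (11209), and for PRL (13.8), SMC1A (123.3), AKAIN1 (34.03) and SOD3 (31.02). These are the animals with the highest choroid plexus or cerebellar levels of their species.

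P. leucopus 1 was apart for the hypothalamic and midbrain sum (2286), AVP (385.0), OXT (152.5) and HCRT (149.5), for the pituitary and pineal sum (116.1), A2ML1 (40.25) and GPR17 (50.35), and at the low end for SNAP25 (3377). P. maniculatus 5 was apart for the hypothalamic and midbrain sum (4902), AVP (1344), OXT (619.0), HCRT (595.7), TPH2 (15.9), DDC (54.5), the endothelial sum (416.5), IRF7 (14.2) and PMFBP1 (4.76).

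Of the other animals, P. leucopus 6 was apart for SLC8A1 (7.02), RORB (27.04) and CCKBR (7.76), P. leucopus 5 for DRD2 (183.8) and at the low end for SYT11 (576.1), and P. leucopus 2 for PRL (10.6). P. maniculatus 1 was apart for PDZD3 (35.7), P. maniculatus 2 for AANAT (7.23), P. maniculatus 4 at the low end for ALDH1L1 (36.9) and P. maniculatus 6 for TBX21 (2.33).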

How the results depend on the processing

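The count of genes called higher in P. leucopus, 1142, moved to 110 of the 1637 genes when only genes whose lengths differed by at most 25% were used and to 1734 with region levels as covariates, and that for P. maniculatus, 678, moved to 102 with those genes, where fewer genes are tested. Other alternatives left both counts within 1.5 times, and leaving out 1 animal gave 993 (without P. maniculatus 2) to 1374 (without P. maniculatus 3) for P. leucopus and 643 to 762 for P. maniculatus. The interaction count of 0 became 53 with DESeq2, stayed 0 with TMM factors and without the filter, and ran from 0 to 1 when 1 animal was left out (1 without young P. maniculatus 3). The directions of 10 named genes turned without division by length, which is the cause by construction: PCDHAC2 -2.69, ANKRD24 -1.91, DHX9 -1.90, IGIP 2.60, OST4 0.54, SMIM10L1 2.26, AKAIN1 2.57, ALDH1L1 -0.47, CSPG4 -0.23 and RPL22 0.17. With rows summed MAG became 1.02 and BHLHE40 0.17, by the counts of the added row. With TMM factors NEFM, ALDH1L1, AANAT, DDC, IRF7, SLC17A6 and SV2C did not pass, and called genes that fell short of the fold limit were PDGFRA 0.95, CDH5 0.96, FLT1 0.85, GPX8 0.93, PSMC4 0.97, PER3 0.998, RPS23 0.98, SYT11 0.89, OPALIN 0.99, CAT 0.85, MAPT 0.97, NR1D2 0.86 and CSNK1D 0.97. With region covariates KL, AANAT, CALB1 and IRF7 no longer passed and RPS23 fell short of the fold limit. Without 1 animal, further called genes fell short of the fold limit: PDGFRA 0.97, SYT11 0.96 and FLT1 0.90 without P. maniculatus 2, PER3 0.98 without P. leucopus 5 and MAP1LC3A -0.98 without P. maniculatus 5. No paired analysis was possible because the labels give no replicate numbers shared between the groups. Depth limits genes of a few counts, and the annotations, which no alternative exchanges, limit all of them.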
